A study of Mus musculus with 31 samples.

Results

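The 10 genes described here encode alpha subunits of heterotrimeric G proteins, the switch proteins that sit beneath serotonin, dopamine and other seven-pass receptors. They were listed by symbol and comprise Gnas of the Gs class, Gnai1, Gnai2, Gnai3 and Gnao1 of the Gi/o class, Gnaq, Gna11 and Gna14 of the Gq/11 class, and Gna12 and Gna13 of the G12/13 class. Each symbol matched a single gene among the 55379 genes of the count tables, and all 10 passed the filter on low counts that left 14362 genes for testing. Mammary glands were taken on lactation day 10 from 31 C57BL/6J dams, with 1 RNA-seq library of poly-A RNA per dam. Dams ate a breeder diet with 4 mg/kg folic acid (FA) or an FA diet with 24 mg/kg, and were injected from embryonic day 13 with saline or with 20 mg/kg of fluoxetine, a selective serotonin reuptake inhibitor. Saline was given to 8 dams on the breeder diet and 8 on the FA diet, and fluoxetine to 7 and 8 dams, and the comparisons address whether the drug, the diet or their combination altered the gland's transcripts. No group carried a genetic change.

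An alpha subunit binds GDP at rest and GTP after a receptor is activated, and its class decides which enzyme is addressed next. Gs stimulates adenylyl cyclase and raises cyclic AMP, Gi/o inhibits adenylyl cyclase and releases beta-gamma dimers, Gq/11 activates phospholipase C beta and so releases calcium from stores, and G12/13 acts on the cytoskeleton. Serotonin receptors of the HTR1 family couple to Gi/o, those of the HTR2 family to Gq/11 and HTR4, HTR6 and HTR7 to Gs, while D1-like dopamine receptors use Gs and D2-like receptors use Gi/o. In the lactating gland, oxytocin contracts myoepithelial cells through its Gq/11-coupled receptor.

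The end of the protein contacts the receptor. The last 9 codons before the stop codon of 1 transcript per gene, its canonical one, are shown from the GENCODE vM39 annotation of GRCm39, 5′ to 3′ on the coding strand, with the codon at position 4 from the end in capitals, because in the Gi/o class it encodes the cysteine that pertussis toxin modifies.
Gnas: atgcatctccgccaaTACgagctgctc
Gnai1: aataacctaaaagacTGTggtctcttc
Gnai2: aacaacctgaaggacTGTggcctcttc
Gnai3: aacaacttaaaggaaTGTgggctttat
Gnao1: aacaatctccggggcTGCggcttgtac
Gnaq: ctgaacctgaaggagTACaatctggtc
Gna11: ctgaacctgaaggagTACaacctggtg
Gna14: ctaaacctacgggagTTCaacttggtg
Gna12: gagaacctgaaagacATCatgctgcag
Gna13: gacaacctgaagcagCTCatgctgcag
Other complete coding transcripts of a gene can end differently, since the end shown is that of 9 of 20 for Gnas, 1 of 3 for Gnai1, 2 of 7 for Gnao1 and 2 of 5 for Gna13. In the ends shown, all 4 Gi/o members carry a cysteine codon at that place and the other 6 carry none. Gnaq and Gna11 share 25 of these 27 bases, Gnai1 and Gnai2 share 23, and Gna12 and Gna13 share 22, whereas Gnas shares at most 15 with any other member. Pairs within a class did not all share more bases than pairs between classes. Gnao1 shares 15 with Gnai1 and with Gnai3, whereas Gna11 shares 17 with Gna12, and no pair between classes shares more. The closest match of each member but Gnas lies in its own class, and for Gnao1 it is Gnai2 with 18.

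Gnas (ENSMUSG00000027523) lies on the plus strand at chr2:174126022-174188537, an imprinted locus whose transcripts use several first exons. Gnai1 (ENSMUSG00000057614) is on the minus strand at chr5:18469193-18565655, Gnai2 (ENSMUSG00000032562) on the minus strand at chr9:107491324-107512626, Gnai3 (ENSMUSG00000000001) on the minus strand at chr3:108014590-108053469 and Gnao1 (ENSMUSG00000031748) on the plus strand at chr8:94536594-94696016. Gnaq (ENSMUSG00000024639) at chr19:16110027-16365882 and Gna14 (ENSMUSG00000024697) at chr19:16412981-16588184 are neighbours on the plus strand, and Gna11 (ENSMUSG00000034781) is on the minus strand at chr10:81364558-81381060. Gna12 (ENSMUSG00000000149) is on the minus strand at chr5:140744158-140816336 and Gna13 (ENSMUSG00000020611) on the plus strand at chr11:109253598-109292195. Exon bases are shared with a gene on the opposite strand by Gnas (Gnasas1, 39 counts over all libraries), Gnao1 (4930488L21Rik, 0 counts), Gna12 (Amz1, 1348 counts) and Gna13 (Gm11696, 490 counts). Whether reads were counted by strand is not given in the sources used here, so reads of such a pair cannot be told apart.

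Library totals ran from 15412542 to 36000439 counts. The 20 most abundant genes took at least 70.1% of the counts in every library but those of dam 3 of FA diet + fluoxetine (39.3%) and dam 13 of breeder diet + fluoxetine (60.5%), which stood apart. Dam 3 also had the lowest summed level of 6 secretory epithelium markers (42158 CPM against a median of 559458 in its group). It had the highest of 6 fibroblast markers (937 CPM against a median of 104). CPM throughout are counts scaled to library size after TMM normalization (trimmed mean of M-values). That step weighed heavily on dam 3, where 4171 Gnas reads of 18919573 counts gave 72.9 CPM. In dam 4 of breeder diet + saline, 1239 Gnas reads of 18367515 counts gave 70.9 CPM. Marker sums scaled to library size alone are not given. In bulk tissue, fewer cells of a type and less RNA per cell cannot be told apart. All 6 pan-epithelium markers passed the filter and summed to between 246 and 392 CPM. Of 6 nerve and glia markers Snap25 and Syt1 had no count in any library, but 4 passed the filter, and the list summed to between 60.6 and 120 CPM. The results that rest on dam 3 are given with and without it.

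Transcripts of all 4 classes were present in every dam, but at very different levels. Scaled to the length of their exons, Gnas and Gnai2 were the most abundant, with 7.67 and 7.30 CPM per kb, followed by Gna11 with 5.35 and Gnai3 with 5.29. Gnaq (2.50), Gna13 (2.46) and Gna12 (1.78 CPM per kb) formed the middle of the order. Gna14 (0.589) and Gnai1 (0.529 CPM per kb) were scarce, and Gnao1, the Gi/o member best known from neurons, was lowest at 0.0386 CPM per kb. Neighbours in the order were compared within dams by a two-sided sign-flip permutation test with 100000 resamples, adjusted over 9 pairs. Gnai2 exceeded Gna11 in 27 of 31 dams, Gnai3 exceeded Gnaq in 29, and Gna12 exceeded Gna14 and Gnai1 exceeded Gnao1 in all 31, each with adjusted p = 2.25e-05, which rests on the smallest p the resamples can give. Gna13 exceeded Gna12 in 26 of 31 dams, by a mean log2 difference of 0.46 (SD 0.61, adjusted p = 5.94e-04 by permutation). Gnas did not differ from Gnai2 beyond the spread between dams (permutation test, adjusted p = 0.309), nor did Gna11 from Gnai3 (0.543), Gnaq from Gna13 (0.525) or Gna14 from Gnai1 (0.531). The lead of Gnas depends on the length used. The union of its exons counts alternative first exons that few transcripts share, and with the longest transcript in its place Gnas stood at 21.7 CPM per kb against 11.4 for Gnai2 (mean log2 difference 0.93, adjusted p = 1.8e-05 by permutation), Gna11 then exceeded Gnai3 by 0.36 on the log2 scale (adjusted p = 2.4e-04), and Gnai1 moved ahead of Gna14.

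**Figure D1:**
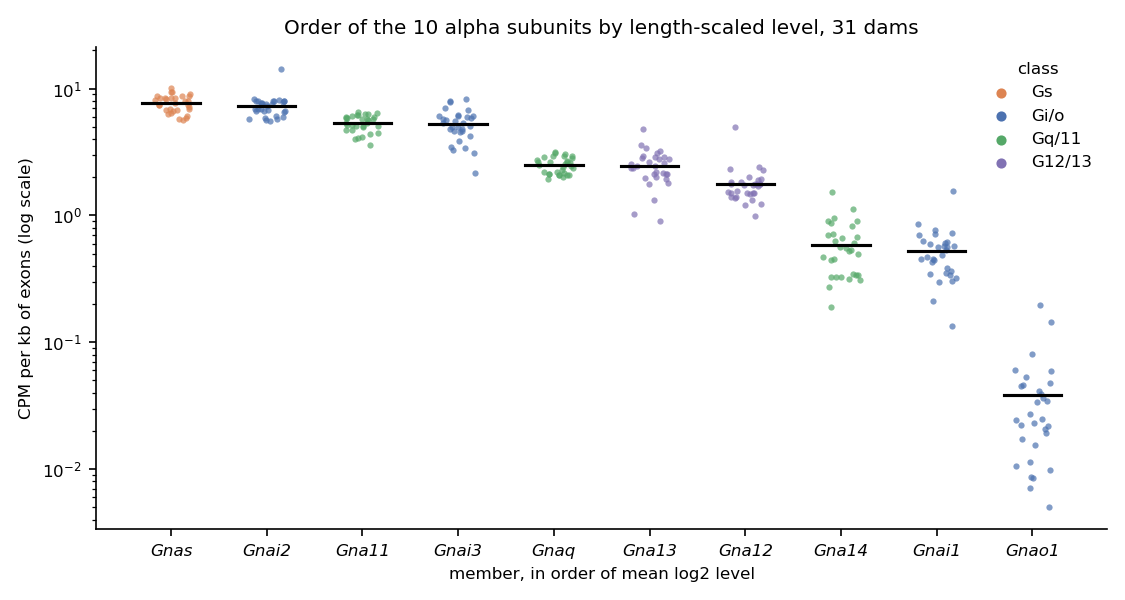
Level of the 10 alpha subunits in CPM per kb of exons (vertical log axis), ordered by mean log2 level; each point is 1 of 31 dams, bars are means and colours are classes. Levels fall from 7.67 CPM per kb for Gnas to 0.0386 for Gnao1, and the high point of Gnai2 and of Gna12 is dam 3 of FA diet + fluoxetine.

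Within the Gi/o class, Gnai2 exceeded Gnai3 in 28 of 31 dams with a median ratio of 1.34, and it exceeded Gnai1 by a median of 14.0 times and Gnao1 by a median of 247 times. Within Gq/11, Gna11 exceeded Gnaq in all 31 dams, with ratios from 1.23 to 3.09 and a median of 2.19. Gnaq in turn exceeded Gna14 in all 31 dams, with a median ratio of 4.46. Of the summed length-scaled level of the 10 genes, Gi/o held 39.0% ± 3.8 (SD, n = 31), Gq/11 held 25.4% ± 3.3, Gs held 23.0% ± 3.0 and G12/13 held 12.6% ± 2.1. These shares are a description of transcripts, and with the longest transcript as length Gs stood above Gi/o, with 40.1% against 32.5%, while Gq/11 stood at 18.8% and G12/13 at 8.63%. The mean Gi/o share on the breeder diet was 39.3% with saline and 39.1% with fluoxetine, and on the FA diet 37.6% and 40.2%, the last of which was 38.6% without dam 3. Dam 3 of FA diet + fluoxetine had the highest Gi/o share, 51.3%, and the lowest Gs share, 14.96%.

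**Figure D2:**
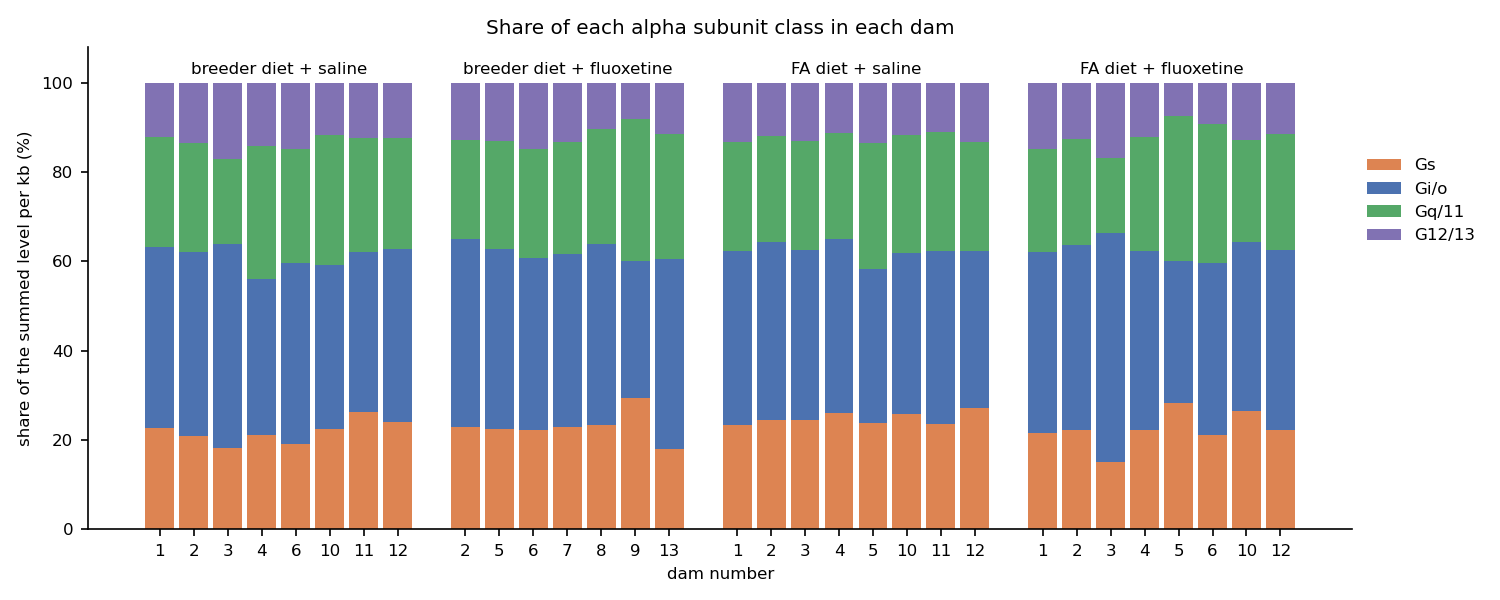
Share (%) of the Gs, Gi/o, Gq/11 and G12/13 classes in the summed level per kb of the 10 genes, 1 bar per dam in the 4 groups. Gi/o is the largest part in most bars, and dam 3 of FA diet + fluoxetine stands out with 51.3% Gi/o.

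Levels of single members are given from here on in the same TMM-normalized CPM, but not divided by length. This scale allows comparison of a gene between dams but not of genes with each other. Gnas, the most heavily counted member with 64257 reads in all, ranged from 70.9 to 109 CPM with a median of 86.3 in breeder diet + saline, from 67.8 to 99.7 (median 88.8) in breeder diet + fluoxetine, from 85.2 to 120 (median 103) in FA diet + saline and from 69.5 to 106 (median 85.7) in FA diet + fluoxetine. The FA diet + saline dams lay highest, but all 4 groups overlapped. The replicate-to-replicate variation of Gnas was small, with a biological coefficient of variation (the dam-to-dam spread beyond counting error, BCV) of 18.7% against a median of 32.4% over all tested genes.

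Gnai2, the main Gi/o transcript, was equally steady in all dams but 1. Its range was 24.9 to 36.0 CPM (median 31.5) in breeder diet + saline, 24.1 to 34.9 (median 33.1) in breeder diet + fluoxetine, 28.4 to 35.2 (median 32.6) in FA diet + saline and 24.8 to 62.2 (median 29.1) in FA diet + fluoxetine. The value of 62.2 CPM belonged to dam 3, and without it no dam exceeded 36.0 and the coefficient of variation over dams was 12.4% in place of 21.4%. Gnai3 spread more widely, from 7.39 CPM in a breeder diet + fluoxetine dam to 28.3 in a breeder diet + saline dam, with means of 19.4 ± 5.6 (SD, n = 8), 16.1 ± 5.1 (n = 7), 18.7 ± 4.6 (n = 8) and 17.8 ± 4.8 CPM (n = 8) in the order of the groups above. Gnai1 lay between 0.824 and 5.29 CPM outside dam 3, which had 9.56. Gnao1 had 1 to 128 reads per library and 372 in all. Its medians on the breeder diet were 0.258 CPM with saline and 0.473 with fluoxetine, and on the FA diet 0.214 and 0.335, with single high dams at 1.66 and 2.24 CPM on the FA diet, and its spread was the widest of the 10 (BCV 75.6%).

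The receptors of oxytocin and of the HTR2 family signal through Gnaq and Gna11, which varied least of the 10 genes together with Gnas. Gnaq kept between 14.4 and 23.3 CPM over all 31 dams (BCV 17.9%), with group medians of 19.9, 17.7, 17.4 and 17.8 in the same order. Gna11 kept between 16.4 and 29.7 CPM (BCV 18.4%), with medians of 23.6, 23.3, 25.98 and 22.8, and its lowest value was again dam 3. Gna14, a Gq/11 member with a narrower tissue range, lay between 0.674 and 5.51 CPM (BCV 45.8%).

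Of the G12/13 pair, Gna12 ranged from 4.45 to 10.6 CPM in all dams but dam 3, which had 22.3. Its medians on the breeder diet were 7.26 with saline and 6.80 with fluoxetine, and on the FA diet 8.21 and 7.18. Gna13 ranged from 11.4 to 31.2 CPM (median 18.5) in breeder diet + saline, from 5.85 to 20.3 (median 15.2) in breeder diet + fluoxetine, from 13.6 to 18.4 (median 16.3) in FA diet + saline and from 6.67 to 20.9 (median 13.6) in FA diet + fluoxetine. Its lowest dams were in the fluoxetine groups and its highest in breeder diet + saline, with overlap between all groups.

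**Figure D3:**
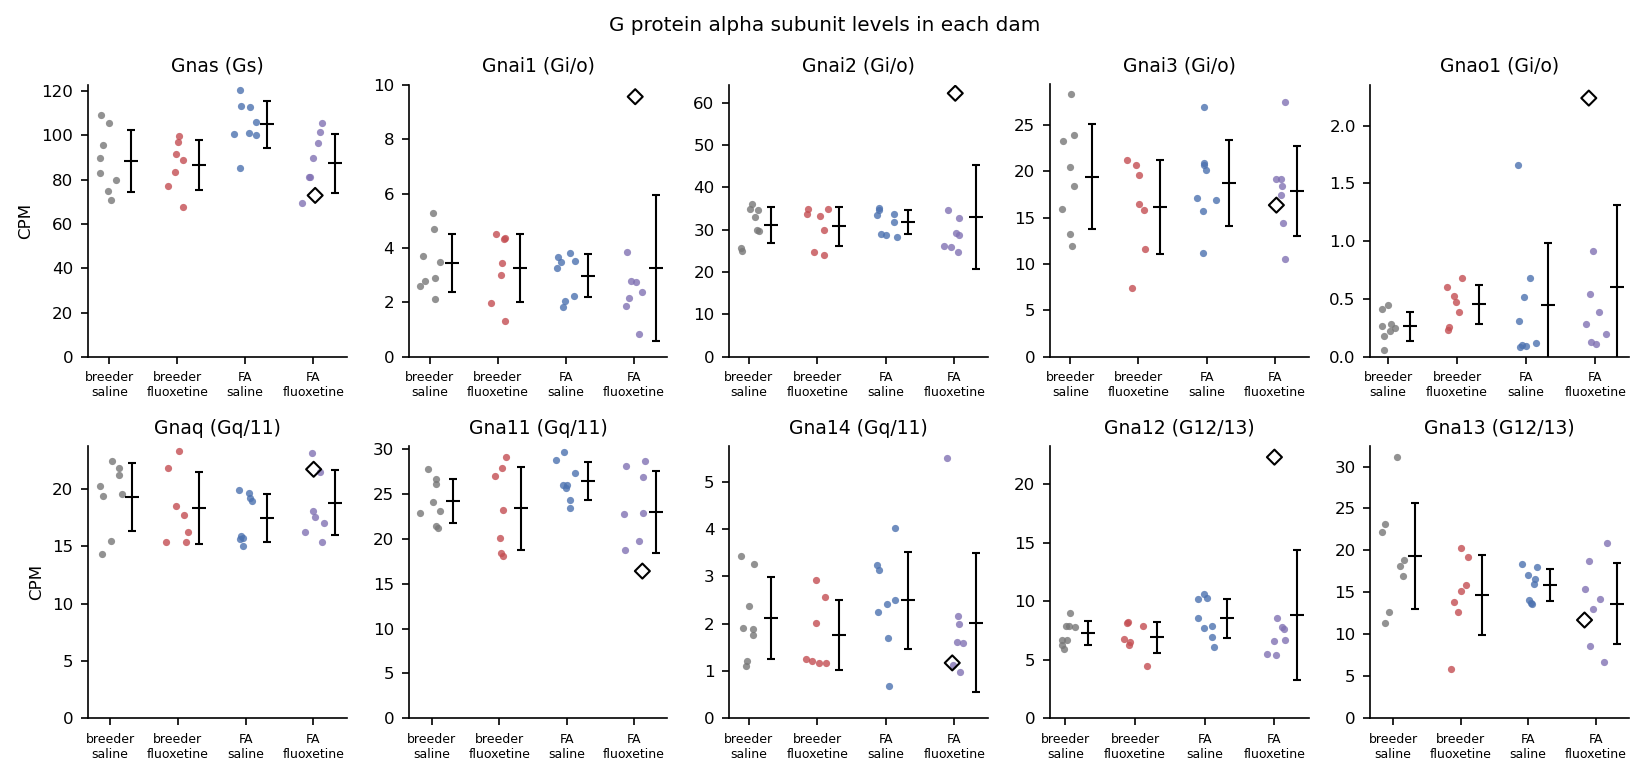
TMM-normalized CPM of each member (vertical axes, linear) in the 4 diet and drug groups; points are dams, the open diamond is dam 3 of FA diet + fluoxetine, and bars are mean and SD, cut at 0 for Gnao1. Groups overlap for all 10 genes, and the diamond is the top point for Gnai1, Gnai2, Gnao1 and Gna12.

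No alpha subunit passed the test for fluoxetine. Over both diets, 0 of the 10 passed an FDR of 10% (edgeR, quasi-likelihood test, Benjamini-Hochberg over all 14362 genes), where 0.0209% of genes did, and 0 had an unadjusted p under 0.05, where 9.92% of genes did. The smallest p was that of Gna13, with 17.6 ± 4.8 CPM in saline dams (SD, n = 16) and 14.1 ± 4.6 in fluoxetine dams (n = 15), a log2 fold change of -0.31 (SE 0.15, 95% interval -0.62 to 0.0014, edgeR adjusted p = 0.502). Gnas had 96.8 ± 14.7 and 87.0 ± 11.95 CPM and a log2 fold change of -0.15 (interval -0.32 to 0.023, edgeR adjusted p = 0.568). The intervals of the steady members were narrow: Gnaq had -0.16 to 0.19, Gnai2 -0.19 to 0.23 and Gna11 -0.30 to 0.055 on the log2 scale. Those of Gnao1 (-0.29 to 1.48) and Gna14 (-0.78 to 0.21) were wide, and so leave room for a sizeable rise of Gnao1 and a sizeable fall of Gna14. The median log2 fold change of the members was -0.066, with 4 of 10 above 0, and that of all tested genes was 0.019. Without dam 3 the estimates of Gnai2 and Gnai1 turned from 0.020 and 0.039 to -0.087 and -0.21, and that of Gna12 went from -0.010 to -0.20 (edgeR adjusted p = 0.548).

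Within the breeder diet, fluoxetine gave 0 calls among the members and 0 with an unadjusted p under 0.05, beside 0% and 4.39% of all genes. Within the FA diet it gave 0 calls and 1 member with an unadjusted p under 0.05, Gnas, beside 0% and 9.98% of all genes. Its level was 105 ± 11 CPM with saline and 87.4 ± 13.3 CPM with fluoxetine (SD, n = 8 each), with a log2 fold change of -0.26 (SE 0.12, 95% interval -0.50 to -0.026, edgeR unadjusted p = 0.0310, adjusted p = 0.468), against -0.033 (interval -0.28 to 0.21) on the breeder diet. The difference between the diets was tested by the interaction, which Gnas did not pass (-0.23, SE 0.17, edgeR adjusted p = 0.977). On the FA diet, deviations of the 7 pairs of dams that share a label number across the drug arms had r = 0.12 to 0.43 over the tested genes. These r were not tested, the pairing was chosen after seeing the data, and the labels do not say what the number marks. With that number as a block 0 members were called, beside 0% of all genes, and 0 had an unadjusted p under 0.05, beside 9.12%. The blocked value of Gnas was -0.24 (interval -0.50 to 0.025, edgeR unadjusted p = 0.0748, adjusted p = 0.576), and Gnas was lower with fluoxetine in 6 of 7 pairs, as was Gna11 (-0.24, interval -0.50 to 0.023, edgeR adjusted p = 0.573). On that diet all 6 secretory epithelium markers also had a fluoxetine log2 fold change below 0 (median -0.28, with 0 called), as did all 6 skeletal muscle markers (median -0.96). Over all genes the median was 0.035, with 54.5% above 0. Medians were -0.17 for pan-epithelium and -0.25 for myoepithelium markers, and 0.045 to 0.80 for endothelium, fibroblast, leukocyte, adipocyte, and nerve and glia markers. These values include dam 3, which had 42158 CPM of the summed secretory epithelium markers, and they are not given without it. The group medians of that sum were 597066 CPM with saline and 559458 with fluoxetine. The part of any of these marker lists in the value of Gnas was not tested.

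Dietary FA called 0 members over both drug arms, beside 0% of all genes, and 0 had an unadjusted p under 0.05, beside 5.08%. The smallest p was that of Gna12, with 7.10 ± 1.16 CPM on the breeder diet (n = 15) and 8.68 ± 3.97 on the FA diet (n = 16) and a log2 fold change of 0.30 (interval -0.012 to 0.61, edgeR adjusted p = 0.933). Without dam 3 that value was 0.11. The interaction of drug and diet likewise called 0 members, with 0 under an unadjusted p of 0.05, beside 0% and 3.84% of all genes. Its estimates ran from -0.31 for Gnao1 to 0.23 for Gnai1, and their standard errors were at least 0.17.

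**Figure D4:**
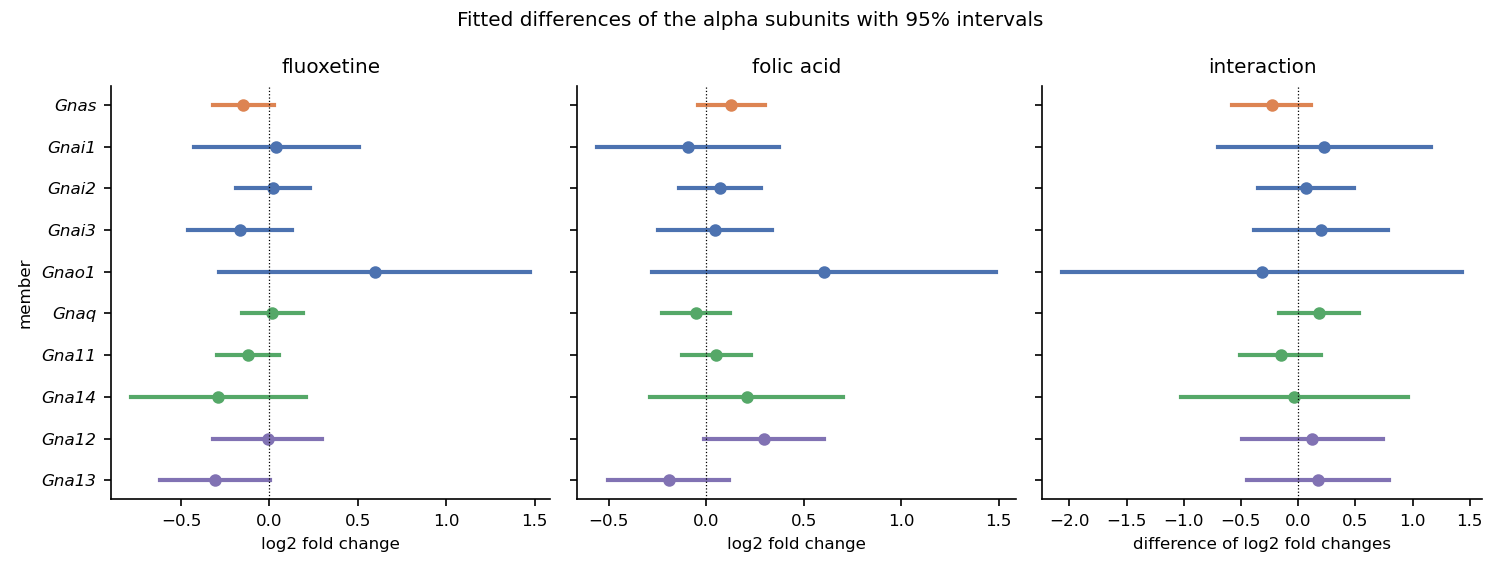
Log2 fold change of each member with its 95% interval for fluoxetine against saline, for FA diet against breeder diet, and, as the difference of fluoxetine effects between the diets, for the interaction (horizontal axes, scaled apart); colours are classes. All 30 intervals include 0, and those of Gnao1, Gna14 and Gnai1 are the widest.

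Members were next compared with each other and with cell type markers through their deviations from the group means, which leaves the variation between dams of a group. Gnai3 and Gna13 moved together, with Pearson's r = 0.87 and Spearman's rho = 0.84 over 31 dams (permutation within groups, adjusted p = 4.5e-04 for each over 45 pairs), r = 0.81 without the 2 dams farthest from the median of Gnai3, and r = 0.87 without dam 3. In the 8 breeder diet + saline dams, for example, dam 3 had the highest value of both (28.3 and 31.2 CPM), and dams 4 and 10 had the lowest values of both, 11.9 and 13.3 CPM of Gnai3 and 12.7 and 11.4 of Gna13. In breeder diet + fluoxetine, dam 9 was lowest for both, with 7.39 and 5.85 CPM. No other pair passed an adjusted p of 0.05 with all dams. Without dam 3, Gnai2 also moved with Gnai3 (r = 0.58, adjusted p = 0.046 by permutation; with it r = 0.36, adjusted p = 0.404). The pair Gnai2 and Gna12 had r = 0.68 with dam 3 and 0.27 without it, and neither value passed the permutation test (adjusted p = 0.270 and 0.602).

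Gnai3 and Gna13 also moved with the 6 pan-epithelium markers Epcam, Krt8, Krt18, Cdh1, Cldn3 and Cldn7. The values were r = 0.72 and rho = 0.70 for Gnai3 (permutation, adjusted p = 0.0027 and 0.0063 over 90 pairs of members and lists) and r = 0.65 and rho = 0.60 for Gna13 (adjusted p = 0.0189 and 0.0252), with r = 0.66 and 0.57 without the 2 dams farthest from the median of the markers, and 0.71 and 0.61 without dam 3. A property of the libraries moved with the same genes. For each library the slope of its deviations over the GC content of 14326 tested genes was taken, and this GC slope had r = -0.72 with Gnai3 and -0.73 with Gna13 (permutation, adjusted p = 6e-04 and 4e-04 over 40 pairs; rho = -0.75 and -0.79; r = -0.74 and -0.68 without the 2 farthest dams) and r = -0.63 with the pan-epithelium markers. The longest transcripts of Gnai3 and Gna13 have 41.6% and 46.7% GC, under the median of 49.4%. Gnai1 (44.7%), Gnaq (46.7%) and Gna14 (49.2%) were also under it, with r = 0.10, -0.21 and -0.23 with the GC slope. Above it, Gnas (57.5%) had r = -0.40, and Gnai2, Gnao1, Gna11 and Gna12 (57.1% to 58.2%) had r = 0.038 to 0.19. None of these r passed the permutation test (adjusted p at least 0.334). With the GC slope taken out of both, the correlation of Gnai3 with Gna13 was 0.73 and that of Gnai3 with the markers 0.50 (permutation, adjusted p = 4.4e-04 and 0.0132), whereas that of Gna13 with the markers was 0.36 (adjusted p = 0.0949). The mean GC slope was 0.062 log2 units per 10 percentage points of GC higher in fluoxetine than in saline dams (permutation within diets, p = 0.168), and its part in the value of Gna13 under fluoxetine was not tested.

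Gna11 showed the clearest dependence on dam 3. With all 31 dams it had r = 0.00094 with the 6 fibroblast markers, among them Col1a1, Col3a1 and Pdgfra (rho = 0.40). Without dam 3, in which fibroblast markers were highest and Gna11 lowest, r was 0.72 (permutation, adjusted p = 9e-04), and it was 0.58 without the 2 dams farthest from the median of the markers. With the GC slope taken out it stayed at 0.72 in those 30 dams. Dam 3 was also highest for the summed leukocyte (224 CPM) and adipocyte markers (194 CPM). The reverse held for Gnai2, Gna12 and Gnai1, whose r with fibroblast markers of 0.71, 0.68 and 0.64 became 0.23, 0.097 and 0.35 without dam 3, and none of these values passed the permutation test. The same dam carried the r of Gnai2 and Gna12 with secretory epithelium markers (-0.67 and -0.70, and -0.022 and -0.028 without it) and with leukocyte markers (0.68 and 0.64, and 0.22 and 0.029 without it), which did not pass either. Gnai2 also had r = -0.76 with the share of counts in the 20 most abundant genes (rho = -0.54, r = -0.41 without the 2 farthest dams, permutation, adjusted p = 0.0220 over 40 pairs), and -0.35 without dam 3 (adjusted p = 0.516). Gnas had r = -0.42 with leukocyte markers (-0.34 without dam 3), and its highest r was with secretory epithelium markers such as Csn2 and Wap (0.40 with all dams and 0.44 without dam 3, adjusted p = 0.202 and 0.227 by permutation), and no correlation of Gnas, Gnaq, Gna14 or Gnao1 with a marker list passed.

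**Figure D5:**
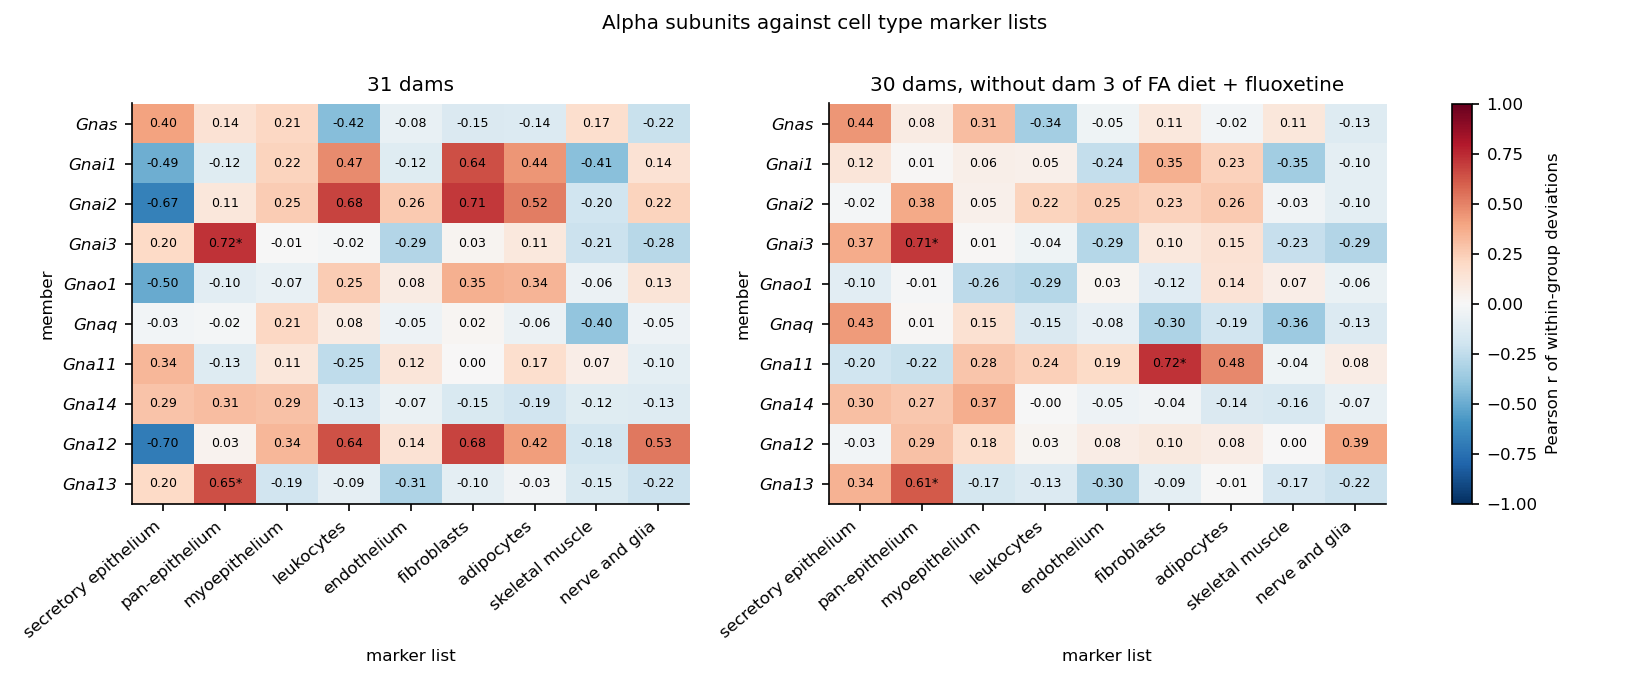
Pearson's r (colour and number) between each member (rows) and 9 cell type marker lists (columns), from deviations within groups, with all 31 dams on the left and without dam 3 of FA diet + fluoxetine on the right; stars mark an adjusted permutation p under 0.05. Gnai3 and Gna13 are starred with pan-epithelium in both panels, and Gna11 with fibroblasts only on the right.

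For the most abundant member of each class, the tested genes with the most similar deviations were read from all 14362 genes; since they are the highest of that many, they are a description. Gnas was most like Ubxn2a (r = 0.71), Wipi1 (0.69) and Mtm1 (0.68) over 31 dams. Gnai2 was most like Kank2 (0.83), the basement membrane collagen gene Col4a1 (0.81) and the small GTPase gene Ralb (0.80), which were 0.63, 0.61 and 0.67 without dam 3. Gna11 was most like the translation initiation factor gene Eif3b (0.89), the fatty acid synthase gene Fasn (0.86) and Nolc1 (0.82), and Gna13 was most like Evi5 (0.92), Rbm45 (0.90) and Cbx3 (0.88).

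The partners of the alpha subunits were read from 12 lists, of which 70 genes passed the filter. For fluoxetine 0 of the 70 passed an FDR of 10%, and 9 (12.9%) had an unadjusted p under 0.05, beside 9.92% of all genes. For FA and for the interaction 0 passed too, with 4 (5.71%) and 5 (7.14%) under an unadjusted p of 0.05, beside 5.08% and 3.84% of all genes. For fluoxetine within the FA diet 0 passed and 11 (15.7%) had an unadjusted p under 0.05, beside 9.98%, and within the breeder diet 0 and 5 (7.14%), beside 4.39%. Among the remaining alpha subunits 2 of 6 passed the filter, the Gq-class Gna15 at 3.66 CPM per kb and the Gs-like Gnal at 0.259, which had a fluoxetine log2 fold change of -0.44 (edgeR adjusted p = 0.570). Alpha subunits work with a beta-gamma dimer, and of 5 beta genes 4 passed, led by Gnb2 (15.2 CPM per kb) and Gnb1 (6.10). The beta gene of smallest fluoxetine p was Gnb5 (log2 fold change 0.54, edgeR adjusted p = 0.463). Of 12 gamma genes 6 passed, led by Gng5 (9.16) and Gng11 (3.96 CPM per kb), and Gng7 had the smallest p (-0.25, SE 0.087, edgeR adjusted p = 0.388).

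Among 6 chaperones and activators that act without a receptor, all 6 passed the filter, with Gpsm3 (2.40 CPM per kb; fluoxetine log2 fold change 0.39, edgeR adjusted p = 0.457) and the chaperone gene Ric8a (2.11) at the top. RGS proteins speed GTP hydrolysis by Gi/o and Gq alpha subunits, and 12 of 19 passed, led by Rgs5 (3.004) and Rgs19 (1.02 CPM per kb). Rgs16 had the smallest p of that list (log2 fold change 1.47, SE 0.71, edgeR adjusted p = 0.496) on 298 reads in 19 of 31 libraries.

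Of the effectors of Gs and Gi/o, 7 of 10 adenylyl cyclases passed, led by Adcy6 (1.83) and Adcy4 (1.04 CPM per kb). Adcy7 had the smallest fluoxetine p of all 70 partners, with a log2 fold change of -0.49 (SE 0.16, 95% interval -0.82 to -0.17, edgeR adjusted p = 0.347). All 6 protein kinase A subunit genes passed, led by Prkaca (5.87) and Prkar1a (4.12 CPM per kb), and the smallest p was that of Prkar2a (0.17, edgeR adjusted p = 0.565). Of the Gq/11 effectors, all 4 phospholipase C beta genes passed, led by Plcb3 (1.54) and Plcb4 (0.696 CPM per kb), with the smallest p for Plcb2 (0.21, edgeR adjusted p = 0.787).

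Transcripts of serotonin receptors were scarce, whereas 1 dopamine receptor gene was abundant. Of 12 G protein-coupled serotonin receptor genes only Htr1d, a Gi/o-coupled member, passed the filter, with 0.819 ± 0.507 CPM (SD, n = 31) and 604 reads in all. The next by level per length, the Gs-coupled Htr7, had 17 reads over the 31 libraries, Htr1b had 22, all in 1 library, and Htr2a had 29, and at this depth expression in a small number of cells would not be seen. Fluoxetine gave Htr1d a log2 fold change of 0.020 (interval -0.76 to 0.80, edgeR adjusted p = 0.993). Of 5 dopamine receptor genes only Drd4, a D2-like and so Gi/o-coupled receptor, passed. Per kb of exon union, the Drd4 level of 8.65 CPM was above that of each of the 10 alpha subunits and of Oxtr. This order depends on the length used: by longest transcript Gnas stood at 21.7 and Gnai2 at 11.4 CPM per kb, and Drd4 was not scaled that way. Exon bases shared with an opposite-strand gene were looked up for the 10 members only. Drd4 had 29.4 ± 16.8 CPM (SD, n = 31) and a fluoxetine log2 fold change of -0.049 (edgeR adjusted p = 0.969), and the other 4 had 0 counts in all libraries. Of 16 further receptors known in the gland, 14 passed, led by the oxytocin receptor Oxtr (3.63 CPM per kb). Pth1r, the receptor of parathyroid hormone-related protein, which couples to Gs and Gq, had the smallest p of these, with a log2 fold change of 1.15 (SE 0.38, interval 0.38 to 1.93, edgeR adjusted p = 0.357). Its level was low, with 0.862 ± 0.451 CPM (SD) in saline dams and 1.95 ± 2.14 in fluoxetine dams, where the SD exceeded the mean.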

How the data were processed

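Poly-A libraries of 31 dams were sequenced. Per the labels and the study's methods, the authors trimmed reads with Trim Galore 0.4.4 after FastQC 0.11.7, mapped them to GRCm39 with HISAT2 and deposited raw counts per gene from HTSeq. The labels put 7 dams in breeder diet + fluoxetine and 8 in FA diet + fluoxetine and were followed, although the study's methods give these counts the other way round; a dam in the wrong group would alter the group means and the contrasts, which was not tested. Of 55379 genes, 54712 matched GENCODE vM39.

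Counts were fitted with edgeR 4.0.16 in R 4.3.3 (filterByExpr, TMM, robust quasi-likelihood test on 4 group means, FDR 10%), with DESeq2 1.42.0 among the alternatives. Intervals are 95% from the fit. Correlations used log2 CPM (prior count 2), NumPy 2.4.6 and 100000 resamples within groups. Levels per length used the union of exons. The scripts were tested on simulated data. Each p-value sets a difference or a correlation against the variation between these dams.

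The members and lists were chosen with earlier results of these data known. Named were all 10 members, of each partner list genes past the FDR in the fluoxetine, FA or interaction contrast, the gene of smallest fluoxetine p and the 2 of highest level per length, and for the leading member of each class the 3 genes of highest r. Htr1b and Htr2a were named after their counts were seen; where a list's second gene by level had 0 counts, it is not named. A partner list and a partner gene that the rule names are not reported here. The GC slope and the block by label number within the FA diet were added after seeing the data. The number was taken to pair dams between the FA diet groups because deviations of all 7 same-numbered pairs correlated (r = 0.12 to 0.43); the labels do not say what it marks. Within groups, 105 library pairs differed by at least 14.9 in chi-square per degree of freedom, so no library duplicated another of its group. Libraries of different groups were not compared in this way.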

Additional observations from a re-analysis of the deposited data

Results flagged for a closer look

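In each group, the highest and the lowest dam were compared with the rest for every member and class share, 56 groups in all, and 7 held a dam that stood apart. Chance gives about 1 in 20 for a check taken alone. The 56 checks share dams and members, so 7 of 56 was not tested against that rate. Of the 7, 4 were dam 3 of FA diet + fluoxetine, the library with the lowest share of counts in the 20 most abundant genes. It had 62.2 CPM of Gnai2 against at most 34.7 in the other dams of its group, 22.3 of Gna12 against at most 8.57, 9.56 of Gnai1 against at most 3.86 and 2.24 of Gnao1 against at most 0.918. Dam 12 of FA diet + saline had 1.66 CPM of Gnao1 against at most 0.679, and without it the interaction estimate of Gnao1 went from -0.31 to 0.36. Dam 2 of FA diet + fluoxetine had 5.51 CPM of Gna14 against at most 2.17, and without it the fluoxetine estimate of Gna14 was -0.49 (edgeR adjusted p = 0.324). Dam 9 of breeder diet + fluoxetine had the lowest Gi/o share, 30.6% against at least 38.6% in the others.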

How the results depend on the processing

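No alternative called a member in a contrast it was run for: the count stayed at 0 in all 5 contrasts with the likelihood ratio test, DESeq2, other filters and normalizations, no robust estimation, the replicate block over all groups, each dam left out, and dams 3 of FA diet + fluoxetine and 13 of breeder diet + fluoxetine left out together, for fluoxetine and FA with the additive model, which has no other contrast, and for fluoxetine on the FA diet with the replicate block within that diet. Across all groups, 28 pairs of dams with equal label numbers had a median r of 0.079, with 12 over 0.1, and whether the numbers pair the dams was not tested. Between the FA diet groups all 7 pairs were over 0.1, and between the breeder diet groups 0 of 2. With the replicate block over all groups, fluoxetine estimates were -0.49 for Gnai1, -0.011 for Gnaq and 0.059 for Gna12, the FA estimate of Gnai1 was 0.32, and interaction estimates were -0.021 for Gnai2, -0.013 for Gnai3, 0.25 for Gna11, -0.23 for Gna12 and -0.15 for Gna13. With the filter of 1 CPM in 7 libraries the Gna12 log2 fold change for fluoxetine was 0.000845. Without both dams, fluoxetine gave -0.24 for Gnai1 and -0.095 for Gnai2, FA gave -0.020 for Gnai2, and the interaction gave -0.15 for Gnai1, -0.094 for Gnai2, -0.26 for Gna12 and -1.16 for Gnao1. The cause of these turns was not tested.

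With each dam left out in turn, Gnas estimates for fluoxetine on the breeder diet ran from -0.080 to 0.018 (0.016 without both dams), fluoxetine estimates over both diets from -0.20 to 0.030 for Gna12, -0.21 to 0.11 for Gnai1, -0.087 to 0.046 for Gnai2 and -0.017 to 0.036 for Gnaq, FA estimates from -0.034 to 0.095 for Gnai2 and -0.016 to 0.092 for Gnai3, and interaction estimates from -0.25 to 0.20 for Gna12, -0.44 to 0.14 for Gna14, -0.26 to 0.37 for Gnai1, -0.14 to 0.12 for Gnai2 and -1.07 to 0.36 for Gnao1. By longest transcript the class shares were 40.1% for Gs, 32.5% for Gi/o, 18.8% for Gq/11 and 8.63% for G12/13, 7 of 9 neighbouring pairs differed in place of 5, and Gna14 minus Gnai1 was -0.24 (log2). In breeder diet + saline alone, Gna11 minus Gnai3 was -0.045 and Gnaq minus Gna13 -0.14. Without dam 3, 2 member pairs and 3 marker correlations passed in place of 1 and 2. Gnao1 has 1 to 128 reads per library.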
